A study of Homo sapiens with 16 samples.

Results

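The genes described here are those by which a liver cell takes up, binds and activates long-chain fatty acids: ACSL1, ACSL3, ACSL4, ACSL5, SLC27A2, SLC27A4, SLC27A5, FABP1 and DBI. They were chosen by name, with earlier results of these data known, and all 9 were found among the 16558 genes of the deposited table. Transcripts were measured by RNA sequencing in edited lines of HepG2, a long-established line from a human liver cancer in which a good part of the hepatocyte program is still expressed. Each line carried 1 of 3 genotypes, made by prime editing, at the I148M position of PNPLA3, a lipid droplet protein: G/G (called GG, 3 lines), G/C (GC, 3 lines) or C/C (CC, 2 lines). G is the allele of the I148M form. Each line, called a clone here and numbered as in the labels, gave 1 control library and 1 library after 250 µM palmitic acid, a saturated fatty acid, for 48 h per the labels' protocol. All groups share the HepG2 background, no library is labelled as unedited, and a genotype is represented only by its 2 or 3 clones. The genotype of the unedited parent line is not given in the labels. The labels do not say that control and treated cultures were repeated, so the spread is that between clones.

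Long-chain fatty acids enter a hepatocyte with the help of membrane proteins and are trapped inside once an acyl-CoA synthetase joins them to coenzyme A. The ACSL enzymes do this at the endoplasmic reticulum, mitochondria and lipid droplets, and the SLC27A proteins (fatty acid transport proteins) combine transport with acyl-CoA synthetase activity toward long and very long chains. FABP1, the liver fatty acid binding protein, carries free fatty acids in the cytosol and is among the most abundant cytosolic proteins of the normal hepatocyte. DBI, also called acyl-CoA binding protein, carries the activated acyl-CoA esters. Several of these genes are known targets of the fatty acid sensor PPARα in liver.

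Libraries held 9314342 to 15777669 reads over 15662 to 16206 detected genes. Values are given as units, which are the deposited RPM (read counts relative to sequencing depth) with the authors' TMM scaling between libraries. All 10 hepatocyte and HepG2 markers were measured, with a summed level of 15368 to 51180 units. Of the adipocyte markers, FABP4 and LEP had no row in the table used here, and the markers with a row summed to 0.0692 to 0.805 units. Stellate and fibroblast markers summed to at most 23.5 units, endothelial ones to between 9.44 and 33.7, biliary ones to between 286 and 419 and macrophage and leukocyte ones to at most 1060 (CD68, CD14 and LYZ; PTPRC, CD163 and C1QA had no row). Of the 10 such markers tested, 1 rose with palmitic acid (PDGFRB, 1.12 ± 0.30) and 2 fell (CD14, -1.03 ± 0.20, and PECAM1, -0.59 ± 0.12; log2, SE), and their part in the results below was not tested. CC clone 3 stood apart: its log2 changes with palmitic acid had an SD over genes of 0.57, against 0.31 to 0.40 in the 7 other clones, and its treated library was the shallowest. The summed hepatocyte markers fell to 0.532 of control in CC clone 3 and were at 0.759 to 0.916 of control in the others. Results that rest on this clone are given with and without it.

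In control cells the members covered a wide range of levels. Per kb of the principal transcript (mean ± SD, n = 8 clones), DBI was highest at 110 ± 38.8 units per kb. It was followed by the synthetases ACSL4 at 75.7 ± 12.1, ACSL5 at 66.2 ± 23.6 and ACSL3 at 29.9 ± 4.38 units per kb. The transporters SLC27A4 and SLC27A2 stood at 20.8 ± 4.16 and 13.4 ± 3.65 units per kb. ACSL1 reached 12.6 ± 6.91 and FABP1 10.4 ± 5.66 units per kb, and SLC27A5, the bile acyl-CoA synthetase of hepatocytes, was lowest at 2.19 ± 0.53. DBI, ACSL4 and ACSL5 overlapped within 1 SD, as did SLC27A2, ACSL1 and FABP1, so their order among themselves is not resolved. The step from ACSL5 down to ACSL3 and the step from FABP1 down to SLC27A5 exceeded the SD on both sides. With palmitic acid DBI stayed highest at 123 ± 36.9 and SLC27A5 lowest at 2.24 ± 0.67 units per kb. ACSL1 then stood at 20.4 ± 15.3 and SLC27A2 at 10.1 ± 3.00. These overlapped within 1 SD, so their order is not resolved here either. The transcript used for the length was one per gene, so a clone that uses another start or end would be misjudged on this scale.

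The members also differed in how far the 8 control libraries lay apart. The highest control level was 6.49 times the lowest for ACSL1, 6.08 times for FABP1, 3.69 times for ACSL5 and 3.13 times for DBI. It was 1.62 times for ACSL4, ACSL3 ran only from 138 to 207 units, and SLC27A2, SLC27A4 and SLC27A5 lay between 1.90 and 2.35 times. The SD of the log2 control level had a median of 0.36 over the members and of 0.28 over the 13095 genes tested. ACSL1 and FABP1 were thus the members whose control levels lay furthest apart, and within GC alone ACSL1 ran from 13.8 to 80.7 units. With 1 control library per clone, differences between clones and between cultures cannot be told apart. FABP1 also had only 21 to 136 reads in the control libraries.

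**Figure D1:**
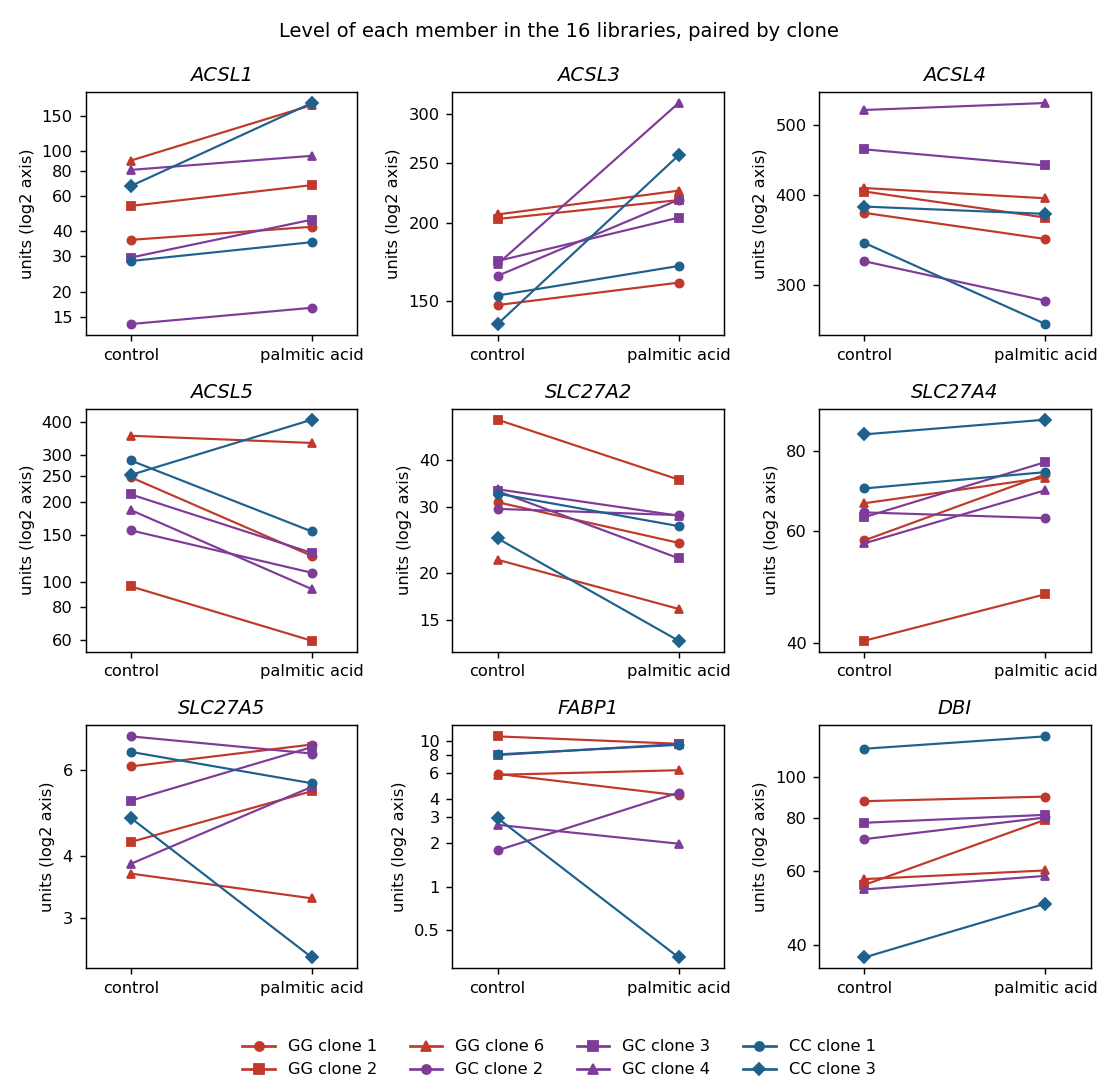
Level of each of the 9 genes (units, log2 axis, a separate scale per panel) in the control and palmitic acid library of each clone, joined by a line; color gives the genotype and the marker the clone. ACSL1, ACSL3 and DBI rise along all 8 lines and SLC27A2 falls along all 8, while CC clone 3 alone rises in ACSL5 and drops furthest in FABP1 and SLC27A5.

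The annotated starts of these genes fall into unlike kinds of promoter, and the upstream sequences of those on which the results turn are shown for that reason. RefSeq windows on GRCh38.p14 of 250 bases before to 50 bases after a start were matched for all 9 genes (17 windows). The windows were searched on both strands for DR1, the element bound by PPARα with RXR, a direct repeat of AGGTCA with any 1 base between, with up to 2 mismatches in its 12 fixed bases, and for TATAAA. DR1 was found in 2.97% of all 35116 windows and in 3 of the 17, those of FABP1, SLC27A2 and 1 start of ACSL1. TATAAA was found in 11.5% of all windows and in 2 of the 17, of which FABP1 has it at bases -31 to -26 from the start, and another internal start of ACSL1 has it after the start. Capitals mark these matches in the 250 bases before each start, given 5′ to 3′ on the gene's strand. The DR1 matches read on the opposite strand, at -68 to -56 in FABP1, -145 to -133 in SLC27A2 and -114 to -102 in ACSL1.

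FABP1, minus strand, chr2:88128063-88128312: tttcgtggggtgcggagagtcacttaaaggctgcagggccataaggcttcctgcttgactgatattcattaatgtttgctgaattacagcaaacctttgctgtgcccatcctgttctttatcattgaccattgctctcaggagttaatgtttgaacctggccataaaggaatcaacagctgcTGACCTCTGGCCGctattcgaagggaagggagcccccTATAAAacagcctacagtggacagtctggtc

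SLC27A2, plus strand, chr15:50181946-50182195: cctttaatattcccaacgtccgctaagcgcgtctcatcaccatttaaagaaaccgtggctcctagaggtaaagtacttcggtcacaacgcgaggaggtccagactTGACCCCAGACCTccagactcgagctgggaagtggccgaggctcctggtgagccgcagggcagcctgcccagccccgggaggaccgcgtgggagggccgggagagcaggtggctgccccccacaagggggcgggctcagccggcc

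ACSL1, internal start, minus strand, chr4:184805554-184805803: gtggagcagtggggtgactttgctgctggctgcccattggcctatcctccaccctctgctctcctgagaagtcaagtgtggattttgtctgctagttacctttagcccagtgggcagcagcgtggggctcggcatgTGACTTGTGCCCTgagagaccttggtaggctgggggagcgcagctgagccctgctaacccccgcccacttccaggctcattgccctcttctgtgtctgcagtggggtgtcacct

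ACSL1, first start, minus strand, chr4:184825969-184826218: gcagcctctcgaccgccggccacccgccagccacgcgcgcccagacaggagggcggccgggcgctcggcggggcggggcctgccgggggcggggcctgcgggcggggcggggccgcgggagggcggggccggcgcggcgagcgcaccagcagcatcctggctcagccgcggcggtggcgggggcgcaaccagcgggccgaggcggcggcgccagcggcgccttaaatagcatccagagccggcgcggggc

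ACSL3, plus strand, chr2:222860786-222861035: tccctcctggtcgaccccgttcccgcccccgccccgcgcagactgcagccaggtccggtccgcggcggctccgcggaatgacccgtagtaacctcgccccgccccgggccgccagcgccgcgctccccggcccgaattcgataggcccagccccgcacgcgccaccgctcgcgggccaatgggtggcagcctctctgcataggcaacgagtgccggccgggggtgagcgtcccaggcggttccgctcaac

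ACSL5, first start, plus strand, chr10:112375018-112375267: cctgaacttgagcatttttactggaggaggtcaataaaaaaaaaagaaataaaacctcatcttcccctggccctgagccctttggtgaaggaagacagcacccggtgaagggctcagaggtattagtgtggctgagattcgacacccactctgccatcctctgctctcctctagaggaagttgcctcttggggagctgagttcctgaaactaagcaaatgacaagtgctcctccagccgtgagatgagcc

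Among the members' windows, that of FABP1 is the only one with both a TATAAA and a DR1 match, and its 250 bases had 48.0% G or C. ACSL1 has the 2 matches at different internal starts. The first start of ACSL1 (83.6%), ACSL3 (75.2%), ACSL4 (77.2%) and SLC27A4 (75.2%) were rich in G and C, against a median of 58.0% over all windows. ACSL5 was at 50.0% and 48.8% at its 2 starts, SLC27A2 at 64.4% and SLC27A5 at 62.8%. The starts of DBI ran from 62.4% to 70.0%, and the internal starts of ACSL1 from 46.8% to 61.2%. A match is a description of letters in a window and does not show binding. Gene-level values do not tell which start was used.

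The first comparison asked how these genes respond to palmitic acid, with each treated library set against the control of the same clone. Of the 9 members, which all passed the filter of a mean of at least 1 unit, 2 rose (ACSL1 and ACSL3), 2 fell (ACSL5 and SLC27A2) and 5 did not pass the test. The test was limma with the clone as a block, the change being the mean of the 3 genotype changes, at a Benjamini-Hochberg adjusted p of 0.05 over all genes tested. In the same fit 18.9% of all genes tested were called (9.33% up, 9.52% down). Without the block, which leaves the large differences between clones in the error, 0 of 9 members and 6 genes in all were called. With the block, 3 members and 9.58% of all genes were called without CC clone 3, and 5 members and 28.7% of all genes without CC clone 1. The median change of the members was -0.06 on the log2 scale and that of all genes -0.01. ACSL1, ACSL3, DBI and SLC27A2 went the same way in all 8 clones, 4 of 9 members (44.4%), against 1775 of 13095 genes (13.6%). Because the members were chosen with earlier results of these data known, these shares are a description and not a test. All changes below are log2 of the value plus 0.5 units, palmitic acid minus control.

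**Figure D2:**
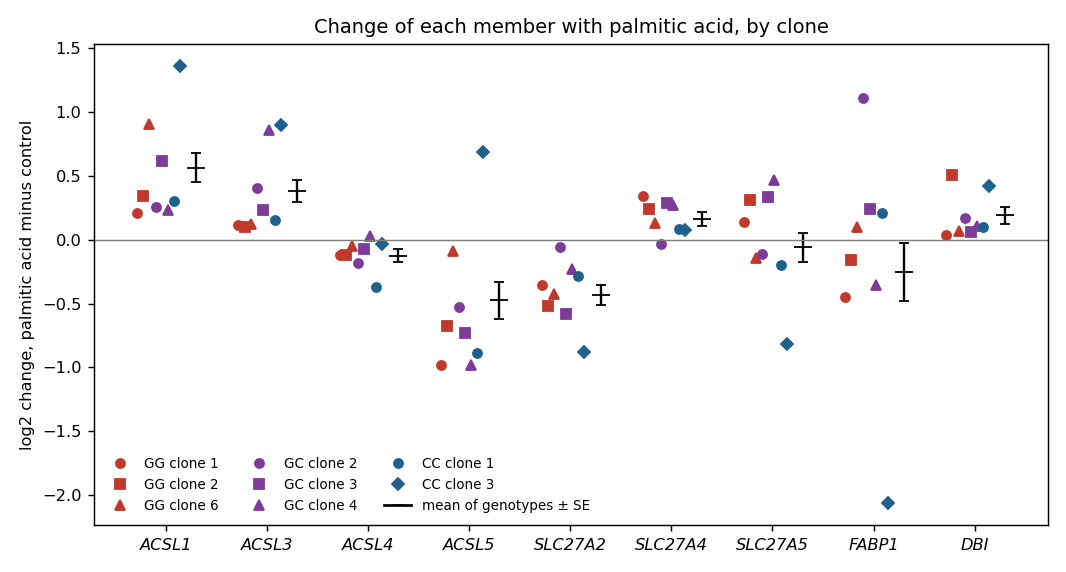
Change of each gene with palmitic acid (log2, palmitic acid minus control) in each of the 8 clones, with the mean over the 3 genotypes and its SE as a black bar. ACSL1 and ACSL3 lie above 0 and SLC27A2 below 0 in every clone, while FABP1 runs from -2.06 to 1.12.

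ACSL1, the major acyl-CoA synthetase of hepatocytes and adipocytes (ENSG00000151726.13, GENCODE v29 on GRCh38, chromosome 4, 184755595 to 184826818, minus strand), rose. In GG it went from 36.3 to 42.1 units in clone 1, from 53.5 to 67.8 in clone 2 and from 89.8 to 169 in clone 6. In GC it went from 13.8 to 16.7 units in clone 2, from 29.6 to 45.7 in clone 3 and from 80.7 to 94.8 in clone 4, and in CC from 28.5 to 35.3 in clone 1 and from 67.1 to 173 in clone 3. Every clone rose, by 1.16 to 2.59 times, yet the treated and control levels overlapped widely because the clones started apart. GC clone 2 after palmitic acid was still below every control library of the other clones. The change over genotypes was 0.56 ± 0.11 (SE; adjusted p = 0.0066 by limma). Without CC clone 3, which had the largest rise, it was 0.39 (adjusted p = 0.025).

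ACSL3, a synthetase of the endoplasmic reticulum and of growing lipid droplets (ENSG00000123983.13, chromosome 2, 222860934 to 222944639, plus strand), rose as well. In GG its level went from 148 to 161 units in clone 1, from 203 to 218 in clone 2 and from 207 to 226 in clone 6. In GC it went from 165 to 218 units in clone 2, from 174 to 204 in clone 3 and from 172 to 313 in clone 4, and in CC from 153 to 171 in clone 1 and from 138 to 258 in clone 3. The GG clones and CC clone 1 gained little, with log2 changes of 0.10 to 0.16, while GC clone 4 and CC clone 3 gained 0.86 and 0.90. Over genotypes it changed by 0.38 ± 0.09 (SE; adjusted p = 0.011 by limma). The call was lost without CC clone 3, at 0.26 (adjusted p = 0.053).

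ACSL5, a synthetase of mitochondria and endoplasmic reticulum that is abundant in gut and liver (ENSG00000197142.10, chromosome 10, 112374018 to 112428380, plus strand), fell over genotypes but not in every clone. In GG it went from 247 to 125 units in clone 1, from 95.9 to 59.9 in clone 2 and from 354 to 333 in clone 6. In GC it went from 156 to 108 units in clone 2, from 213 to 128 in clone 3 and from 186 to 93.7 in clone 4. In CC it went from 286 to 154 units in clone 1, while clone 3 went the other way, from 252 to 407. The fall reached 0.504 of control in GC clone 4 and 0.505 in GG clone 1, against a ratio of 1.61 in CC clone 3. The change over genotypes was -0.48 ± 0.15 (SE; adjusted p = 0.045 by limma). This call was narrow: edgeR and DESeq2 on the recovered reads gave an adjusted p of 0.051 and 0.12. Without CC clone 3 the change was -0.74 (adjusted p = 0.0014) and without CC clone 1 it was -0.21 (adjusted p = 0.14); leaving out GG clone 1, GG clone 2 or any 1 GC clone also ended the call. The gene overlaps ZDHHC6 on the opposite strand, which had a mean of 36.8 units. The library kit keeps strand per the labels' protocols, and whether the counting used it is not given in the sources used here.

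ACSL4, which prefers arachidonic acid and other long polyunsaturated chains (ENSG00000068366.19, chromosome X, 109624244 to 109733403, minus strand), did not pass the test. Its control levels ran from 324 to 524 units (median 395) and its treated levels from 265 to 536 (median 374). It was lower with palmitic acid in 7 clones and higher in GC clone 4, with a change over genotypes of -0.12 ± 0.05 (SE; adjusted p = 0.12 by limma). By reads per library, 3470 to 7040, it was the most deeply sampled member.

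Because the 4 synthetases share a reaction, their transcripts were also added per kb. The sum was 184 ± 30.7 units per kb in control and 182 ± 58.8 with palmitic acid (SD, n = 8), and it was higher with palmitic acid in 3 clones (GG clone 6, GC clone 4 and CC clone 3). Within the sum ACSL1 went from a mean of 6.61% to 10.1% and ACSL3 from 16.6% to 22.4%, each with a higher share in 8 of 8 clones. ACSL5 went from 35.3% to 26.9%, with a higher share in CC clone 3 alone, and ACSL4 from 41.5% to 40.7%, higher in 4 of 8 clones. The mean difference in share was 3.45 ± 2.33 percentage points for ACSL1, 5.81 ± 3.60 for ACSL3, -8.42 ± 5.86 for ACSL5 and -0.84 ± 5.82 for ACSL4 (SD, n = 8). These shares rest on the same values as the tests above and are a description. In CC clone 3 the sum went from 188 to 280 units per kb, and in CC clone 1 from 183 to 134.

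**Figure D3:**
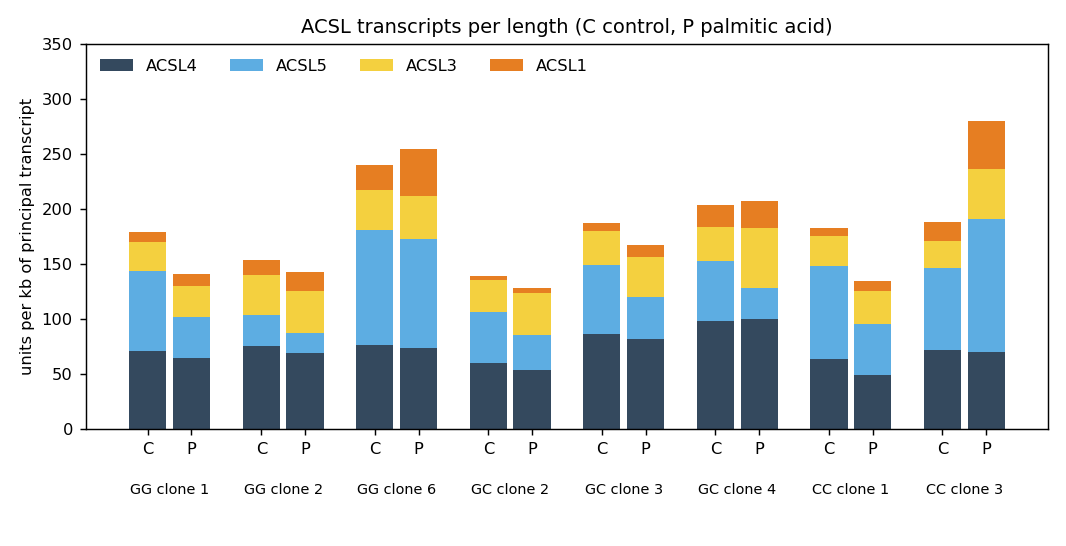
Summed level of the 4 ACSL transcripts (units per kb of the principal transcript, bars from 0) in the control (C) and palmitic acid (P) library of each clone, split by gene. The ACSL1 and ACSL3 segments take a larger share with palmitic acid in all 8 clones, and the ACSL5 segment a smaller one in all but CC clone 3.

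Among the transporters, SLC27A2 (fatty acid transport protein FATP2, a very long-chain acyl-CoA synthetase of liver and kidney; ENSG00000140284.10, chromosome 15, 50182196 to 50236395, plus strand) fell. In GG it went from 30.9 to 24.1 units in clone 1, from 51.1 to 35.4 in clone 2 and from 21.7 to 16.1 in clone 6. In GC it went from 29.6 to 28.5 units in clone 2, from 33.0 to 21.9 in clone 3 and from 33.4 to 28.4 in clone 4, and in CC from 32.5 to 26.7 in clone 1 and from 24.7 to 13.2 in clone 3. All 8 clones fell, from a ratio of 0.963 in GC clone 2 to 0.535 in CC clone 3, and the levels overlapped between treatments. Over genotypes the change was -0.43 ± 0.08 (SE; adjusted p = 0.0049 by limma) and -0.33 without CC clone 3 (adjusted p = 0.023). The hepatocyte and HepG2 markers moved with it: of 10 tested, 6 fell and 0 rose, with a median change of -0.36, and their summed level was lower with palmitic acid in all 8 clones. Of all genes tested, 9.52% fell and 9.33% rose in the same fit. Without CC clone 3 the median change of the markers was -0.21, and without CC clone 1 it was -0.55. The number of markers called down also depended on which CC clone was left out. Within CC clone 3 the median was -1.29, against -0.40 to -0.12 in the other clones. Their part in the result was not tested, and fewer cells of a type and less RNA per cell cannot be told apart in such bulk samples.

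SLC27A4 (FATP4, a widely expressed transporter and synthetase; ENSG00000167114.12, chromosome 9, 128340646 to 128361470, plus strand) was higher with palmitic acid in 7 clones but did not pass the test. Its control levels ran from 40.3 to 84.9 units (median 63.5) and its treated levels from 47.7 to 89.5 (median 73.0). GC clone 2 was the exception, at 64.1 and 62.7 units. Over genotypes the change was 0.16 ± 0.05 (SE; adjusted p = 0.055 by limma), and 3 of the 17 alternatives that kept the clone block called it. SLC27A5 (FATP5 or bile acyl-CoA synthetase; ENSG00000083807.9, chromosome 19, 58479512 to 58512413, minus strand) was scarce, with 23 to 103 reads per library. Its control levels ran from 3.69 to 7.00 units (median 4.99) and its treated levels from 2.50 to 6.74 (median 5.58). It was higher with palmitic acid in 4 clones and lower in 4, and its change over genotypes was -0.06 ± 0.11 (SE; 95% interval -0.31 to 0.19; adjusted p = 0.75 by limma). The furthest fall, from 4.79 to 2.50 units, was in CC clone 3, and without that clone the change was 0.05. SLC27A5 overlaps ZNF446 on the opposite strand (mean 7.32 units, above its own level).

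FABP1 (ENSG00000163586.9, chromosome 2, 88122982 to 88128116, minus strand) did not pass the test and was the most uneven member. In GG it went from 5.95 to 4.23 units in clone 1, from 10.8 to 9.58 in clone 2 and from 5.86 to 6.30 in clone 6. In GC it went from 1.77 to 4.42 units in clone 2, from 8.01 to 9.55 in clone 3 and from 2.66 to 1.97 in clone 4, and in CC from 8.10 to 9.43 in clone 1 and from 2.95 to 0.325 in clone 3. Thus 4 clones were higher and 4 lower with palmitic acid, and both ends of the range were set by few reads. In CC clone 3 the count went from 37 to 3 reads, a ratio of 0.110 (95% exact interval 0.022 to 0.348, for counting error only), and in GC clone 2 from 21 to 65 reads. The change over genotypes was -0.25 ± 0.23 (SE; 95% interval -0.75 to 0.24; adjusted p = 0.46 by limma), and it was 0.12 without CC clone 3. Without CC clone 1 it was -0.63 (adjusted p = 0.021), a value in which CC clone 3 stands alone for its genotype.

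DBI (ENSG00000155368.16, chromosome 2, 119366921 to 119372560, plus strand) was higher with palmitic acid in 8 of 8 clones and just missed the threshold. Its control levels were 87.8, 55.5 and 57.3 units in GG clones 1, 2 and 6, 71.3, 78.0 and 54.2 in GC clones 2, 3 and 4, and 117 and 37.3 in CC clones 1 and 3. With palmitic acid they were, in the same order, 90.01, 79.3, 60.1, 80.3, 81.5, 58.3, 125 and 50.1 units. On the log2 scale 6 clones gained 0.04 to 0.17, and GG clone 2 (0.51) and CC clone 3 (0.42) gained more. Its mean change over genotypes was 0.19 ± 0.06 (SE; adjusted p = 0.060 by limma). Without CC clone 3 this change was 0.14 and further from the threshold, and without CC clone 1 it was 0.25 and passed. The 2 CC clones held both the highest and the lowest control level of all 8. DBI has 2 pseudogenes of its name in the annotation, so reads shared with them are uncertain.

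Within single genotypes, 0 of 9 members passed the adjusted threshold in GG (where 0.84% of all genes did, 0.573% up and 0.267% down), in GC (1.54%, with 0.878% up and 0.664% down) or in CC (2.3%, with 0.848% up and 1.45% down). In GG, 4 members had an unadjusted p under 0.05 in limma: ACSL1 at 0.49 ± 0.18, ACSL5 at -0.58 ± 0.24, SLC27A2 at -0.43 ± 0.13 and SLC27A4 at 0.24 ± 0.09 (SE; adjusted p from 0.15 to 0.27). In GC there were 3, namely ACSL3 at 0.50 ± 0.14, ACSL5 at -0.75 ± 0.24 and SLC27A2 at -0.29 ± 0.13 (SE; adjusted p from 0.092 to 0.28). In CC there were 4, namely ACSL1 at 0.84 ± 0.22, ACSL3 at 0.53 ± 0.17, SLC27A2 at -0.58 ± 0.16 and SLC27A5 at -0.51 ± 0.22 (SE; adjusted p from 0.073 to 0.23). SLC27A2 was on this list in each genotype. The fit shares 1 estimate of the spread, so leaving out either CC clone left the GG and GC changes as they were and lowered their p. ACSL5 then passed in GG (adjusted p = 0.044 without CC clone 1 and 0.042 without CC clone 3), and ACSL3 and ACSL5 passed in GC (0.019 and 0.013 without CC clone 1, 0.018 and 0.012 without CC clone 3). The calls over all genes rose as well, to 3.52% and 3.6% in GG and to 5.8% and 5.84% in GC, without CC clone 1 and CC clone 3 respectively. Single clones of a genotype also set part of the size: ACSL1 in GG was 0.28 without clone 6, ACSL5 in GG -0.38 without clone 1, ACSL3 in GC 0.32 without clone 4 and SLC27A2 in GC -0.14 without clone 3. The CC values are the mean of 2 clones that differed: without CC clone 3 they become the change of CC clone 1, which was 0.31 for ACSL1, 0.16 for ACSL3, -0.28 for SLC27A2 and -0.20 for SLC27A5.

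Whether the genotypes respond differently was tested as the difference of 2 changes. No member passed, as 0 of 9 was called in GG minus GC (0% of all genes called; 229 genes had an unadjusted p under 0.05), in GG minus CC (0.00764%) and in GC minus CC (0.00764%). The members with an unadjusted p under 0.05 were SLC27A5 (0.74 ± 0.29) and FABP1 (1.26 ± 0.58), both in GC minus CC with an adjusted p of 0.91 by limma. Without CC clone 3 they were 0.43 for SLC27A5 and 0.13 for FABP1. Over all genes tested, 768 had an unadjusted p under 0.05 in GG minus CC and 613 in GC minus CC. Without CC clone 1, when CC clone 3 stood alone for CC, ACSL5 passed in GG minus CC at -1.27 (adjusted p = 0.032) and in GC minus CC at -1.44 (adjusted p = 0.022), and FABP1 in GC minus CC at 2.40 (adjusted p = 0.026). In that setting the share of all genes called rose too, to 3.71% in GG minus CC and 2.85% in GC minus CC. For ACSL5 the 2 CC clones thus went opposite ways, and the other 6 clones were lower with palmitic acid.

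Levels were also compared between genotypes within one treatment. In control cells 0 of 9 members was called in GG minus GC, GG minus CC or GC minus CC, where 0% of all genes was called and 738, 150 and 317 genes had an unadjusted p under 0.05. SLC27A4 alone among the members had an unadjusted p under 0.05, with 54.8 ± 13.2 units in GG (SD, n = 3) and 77.4 ± 10.6 in CC (SD, n = 2), a log2 difference of -0.52 ± 0.22 (SE; adjusted p = 1.00 by limma) that was -0.31 without GG clone 2. Its 3 GG controls (40.3, 57.9 and 66.2 units) all lay below the 2 CC controls (69.8 and 84.9). With palmitic acid 0 of 9 members was called in GG minus GC (0% of all genes), GG minus CC (0.00764%) or GC minus CC (0.00764%), and no member had an unadjusted p under 0.05. For ACSL1 in control cells the GG clones averaged 59.8 ± 27.3 units, the GC clones 41.4 ± 35.0 and the CC clones 47.8 ± 27.3 (SD). The genotype means thus lay closer together than the clones of a genotype, and with 2 or 3 clones such a difference was not detectable.

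The other genes of the same pathway were taken from a list of 61 symbols, of which 48 were in the table and 40 passed the filter. That list, too, was chosen with earlier results of these data known. Of these 40, 5 rose, 10 fell and 25 did not pass, with a median change of -0.09, against 9.33% up and 9.52% down over all genes tested. Among 9 further acyl-CoA synthetases tested, 6 fell and 0 rose (median -0.33). They include ACSS3 (-0.27 ± 0.05, adjusted p = 0.0051), a mitochondrial synthetase for short chains, ACSF2 (-0.54 ± 0.11, adjusted p = 0.0067), a medium-chain enzyme of mitochondria, and ACSM2B (-0.67 ± 0.19, adjusted p = 0.029), which is near-identical to ACSM2A and so uncertain. ACSF2 fell in 8 of 8 clones, by most in CC clone 3, where it went from 48.8 to 19.3 units. Of the 6, only ACSS3 and ACSF2 kept the call without CC clone 3, at -0.32 and -0.34. ACSM2B was among those that lost it (-0.39). ACSS2, which had not passed with all clones (-0.20), was called down in that setting (-0.33).

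Among 13 further transporters and binding proteins tested, 2 rose and 2 fell (median 0.01). CD36, a plasma membrane fatty acid receptor, rose (0.64 ± 0.16, adjusted p = 0.020) from a low and very uneven level. Its control levels ran from 0.138 units in GG clone 1 to 9.37 in GC clone 2, and 6 clones were higher and 2 lower with palmitic acid, with 1 to 219 reads per library. The largest gain was in CC clone 1, from 3.73 to 15.4 units, and without that clone the call was lost (0.43, adjusted p = 0.072). The intestinal binding protein FABP2 (-0.48 ± 0.11, adjusted p = 0.011) and the acyl-CoA binding protein ACBD7 (-0.37 ± 0.10, adjusted p = 0.027) fell in 8 of 8 clones from medians of 4.34 and 5.33 units. Without CC clone 3 neither passed, at changes of similar size (FABP2 -0.42, adjusted p = 0.060; ACBD7 -0.40, adjusted p = 0.067), and without CC clone 1 ACBD7 did not pass either (-0.34, adjusted p = 0.059).

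Of 8 acyl-CoA thioesterases tested, which release the fatty acid from coenzyme A, 1 rose and 0 fell (median 0.00). It was the mitochondrial ACOT9 (0.42 ± 0.07, adjusted p = 0.0029), higher in 8 of 8 clones, from 13.5 to 19.3 units in control to 17.7 to 25.4 with palmitic acid. Of 10 regulators tested, 2 rose and 2 fell (median 0.02). CREB3L3, a membrane-bound transcription factor of liver lipid metabolism, rose (0.95 ± 0.15, adjusted p = 0.0020). Its control level was 2.82 to 8.02 units in 7 clones and 26.7 in GG clone 2, which stayed at 27.0. The other 7 went to 5.75 to 19.9 units, though GC clone 4 also changed little, from 6.20 to 6.66. PPARA, which encodes PPARα (-0.37 ± 0.09, adjusted p = 0.017), and HNF4A, a hepatocyte transcription factor (-0.27 ± 0.08, adjusted p = 0.029), each were lower in 7 of 8 clones; HNF4A is also one of the 10 hepatocyte markers above. Both lost the call without CC clone 3 (-0.22 and -0.15, adjusted p = 0.080 and 0.15), whereas ACOT9 and CREB3L3 kept it (0.014 and 0.0096).

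**Figure D4:**
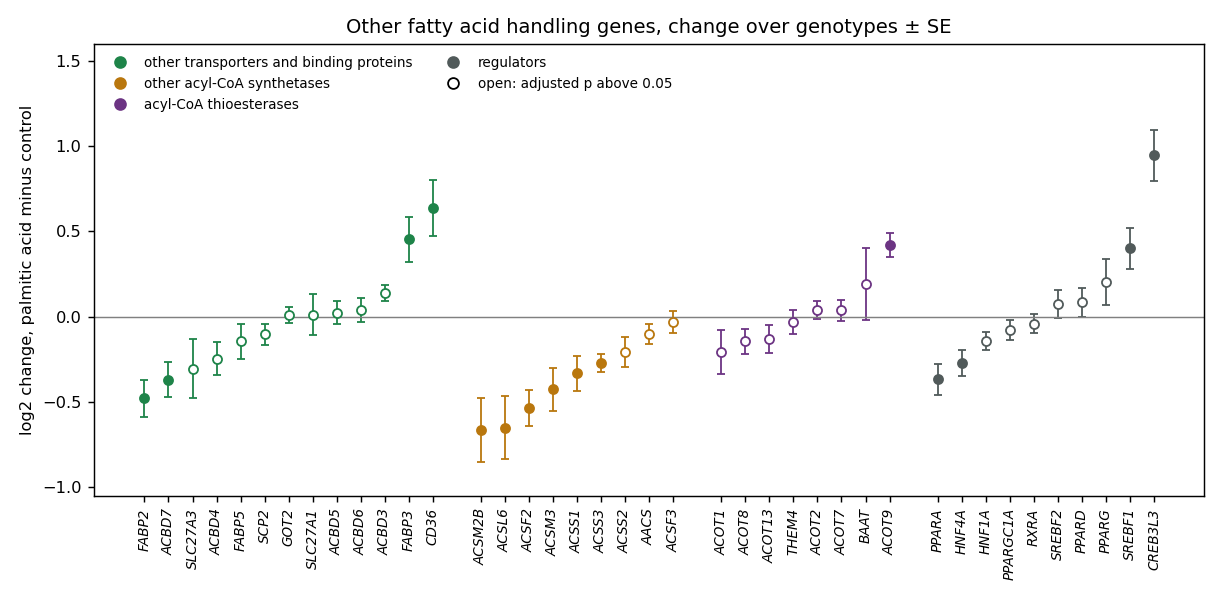
Change with palmitic acid over genotypes (log2, palmitic acid minus control, ± SE) of the 40 tested genes of the wider fatty acid handling list, grouped by role; filled points passed an adjusted p of 0.05 and open points did not. The filled synthetases all lie below 0, while CREB3L3 at 0.95 and CD36 at 0.64 are the highest points.

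For each member the genes with the most similar profile were sought by the root mean square difference of log2 levels over the 16 libraries, each centred on its gene's mean, among 10841 genes with a mean of at least 5 units. Relative to its own spread SLC27A2 was followed most closely, by PRUNE, NEU4 and ZNF563 at 0.14, 0.15 and 0.16, against its own root mean square of 0.44 about its mean. ACSL4 was followed by FNDC3B at 0.10 (own 0.27), and ACSL3 by LSG1 at 0.19, PCYT1A at 0.19 and NOCT at 0.20 (own 0.30). For ACSL5 the nearest were SLC6A9 at 0.33, GPR158 at 0.39 and OTUD1 at 0.43 (own 0.77). On the absolute scale the nearest genes to ACSL1 and FABP1 lay furthest away: CSF1 at 0.52 (own 1.00) and HEPACAM at 0.63 (own 0.99). The 16 libraries come from 8 clones, so these likenesses mostly weigh differences between clones, and they are a description.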

How the data were processed

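Per the labels' protocols, ribosomal RNA was depleted and strand-specific libraries prepared (MGIEasy). Tools in the submitters' processing notes are Bowtie2, RSEM 1.3.0, Trimmomatic 0.38 and edgeR, with hg38 as the build. The annotation, gene filter, strand setting of the counting and vehicle were not given in the sources read. Single treated libraries are labelled 48 to 55 h in place of 48 h, and hours entered no test. The labelled hours follow genotype, at 48 to 50 in GG, 51 to 53 in GC and 54 to 55 in CC. If they are real, hours and genotype cannot be told apart in the treated libraries.

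The table deposited by the authors holds a normalized signal per gene. Divided by the smallest value above 0 of its library, each value came out as a whole number of reads (100% within 0.01), and recomputed TMM factors differed by at most 2.22e-16, so the deposited signal is RPM with TMM scaling. The members had from 3 (FABP1) to 7040 (ACSL4) reads per library.

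Analysed here was log2 of the value plus 0.5 for the 13095 genes averaging 1 unit or more, by limma 3.58.1 (R 4.3.3) with a mean-variance trend, two-sided, Benjamini-Hochberg at 0.05 over all genes tested. Responses were fitted with the clone as a block and a change per genotype (5 residual degrees of freedom), and genotype levels on the 8 libraries of 1 treatment (5 degrees of freedom); 13 comparisons in all. A clone number marks the same edited line in both treatments. In a check, the deviations of its 2 libraries from the group means correlated at 0.523 to 0.857 across genes. The correlation was highest with the own partner in 8 of 8 clones. For the 2 CC clones these deviations are equal and opposite, so their correlation (0.744) is the same value counted for both. No 2 libraries agreed within sampling noise (lowest chi-square per degree of freedom 15.2). The scripts were tested on simulated data. Alternatives were the fit without the block, an additive fit, all libraries in 1 fit, other pseudocounts, filters and scalings, edgeR 4.0.16 and DESeq2 1.42.0 on the recovered counts, and leaving out each clone.

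The members, the wider list, the markers and the motifs were chosen with earlier results of these data known. All members are named. Of the wider list, the 10 called genes with the smallest p over genotypes are named, and ACSS2 where its call changed. Counts of the wider list without the block or a CC clone were added after seeing the data. So was the median change of the hepatocyte markers without a CC clone. Positions and lengths are from GENCODE v29 on GRCh38, promoters from RefSeq on GRCh38.p14.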

Additional observations from a re-analysis of the deposited data

How the results depend on the processing

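Counted here are 23 single-gene results, with 400 values under the alternatives. They are those over genotypes, and those of other comparisons with an unadjusted p under 0.05 by limma in the main fit. Calls gained by other results, such as ACSL5 in GG minus CC and GC minus CC without CC clone 1, are not in these counts. Of these, 366 kept their direction and side of the threshold, 13 lost the call, 19 gained it and 2 reversed. Only 4 of the 23 results, all over genotypes, were called in the main fit, so only these could lose a call. Reversed were SLC27A5 over genotypes (0.045 without CC clone 3; -0.16 to 0.045 over all clones left out) and FABP1 (0.12 without CC clone 3; -0.63 to 0.12). Under the 17 alternatives that kept the replicate block, ACSL1 and SLC27A2 over genotypes were called in 17, ACSL3 in 16, ACSL5 in 9, SLC27A4 in 3, DBI in 2, FABP1 in 1 and ACSL4 and SLC27A5 in 0.

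With no replicate block, fold changes were equal and 0 of 9 members were called over genotypes (adjusted p = 0.83 for ACSL1, 0.43 for ACSL3, 0.79 for ACSL5 and 0.64 for SLC27A2), with 6 genes in all instead of 2469; the wider list then had 0 calls in place of 2 up and 2 down for transporters and binding proteins, 6 down for synthetases, 1 up for thioesterases, and 2 up and 2 down for regulators. With clones left out in turn, 3 to 5 members were called over genotypes, 0 to 1 within GG, 0 to 2 within GC, 0 to 4 within CC (4 without CC clone 1), 0 to 1 in GG minus CC and 0 to 2 in GC minus CC, both highest without CC clone 1, and 0 in the other comparisons. All genes called moved with them, from 0 to 472 within GG, 2 to 765 within GC, 13 to 2082 within CC (2082 without CC clone 1), 0 to 486 in GG minus CC and 0 to 373 in GC minus CC. Over genotypes they ran from 1254 (without CC clone 3) to 3753 (without CC clone 1), with 1448 without GC clone 3 and 1538 without GG clone 1. DESeq2 called 1 member within GC (ACSL3) and 2 within CC (ACSL1 and ACSL3). It also called more genes in all: 380 within GC, against 202 in the main fit. Its highest count in any comparison other than that over genotypes was 493, against 301 in the main fit. In the wider list, leaving out a CC clone gave 1 transporter or binding protein up and 0 to 3 down, 3 to 6 synthetases down, 1 thioesterase up, 1 to 2 regulators up and 0 to 3 down. The cause was not tested.

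Depth limits FABP1 and SLC27A5, with 3 to 136 and 23 to 103 reads per library. With 2 or 3 clones a genotype, 1 clone can set or end a call. Other scalings moved the median of all genes by under 0.04 on the log2 scale.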
